A study of Mus musculus with 16 samples.

Results

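The 10 arrays of 5 induced pluripotent stem (iPS) cell lines were set against the 2 arrays of embryonic stem (ES) cells, with genes changed the same way in every line as the main interest. The arrays were chosen by title, and these 12 are part of 16 arrays in all. One line is OSCK. The labels number the others: OSCE has lines #8 and #13, and OSE has lines #T8 and #T9 (written here without the number sign), with 2 arrays for each line. The ES cells were of the R1 line. The other 4 arrays held mouse embryonic fibroblasts (MEFs), 2 labelled Actin-GFP MEF and 2 labelled Pou5f1-GFP MEF after a green fluorescent protein (GFP) reporter, and give the MEF level. The titles call the 2 arrays of each group biological replicates. Both kinds of pluripotent cell grew over growth-arrested MEF feeders in medium with LIF and serum, and feeder RNA may be present in their samples. The labels used here give no starting MEF, clone history, passage or sex for any line. They also name 1 ES line only, so a trait of R1 cells and a trait of ES cells in general cannot be told apart.

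Reprogramming turns a somatic cell such as a fibroblast into a cell that resembles an ES cell, by introducing transcription factors. In common use the letters of the line names stand for Oct4 (Pou5f1), Sox2, c-Myc, Klf4 and the orphan nuclear receptor Esrrb. A gene that differs between iPS and ES cells can lie toward the level of the fibroblasts, a pattern often called somatic memory. It can also lie away from that level, or differ because the particular ES line is unusual. Interferons are secreted antiviral proteins that switch on a large set of genes through transcription factors such as Stat2 and Irf9, and pluripotent cells are known for a weak interferon response.

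The arrays were Illumina MouseWG-6 version 1.1 BeadChips. Each detected between 35.5% and 38.8% of 46643 probes, and 15642 genes were tested. Values are log2 intensity, where a difference of 1 is 2-fold, and the dimmest detected probe of an array read between 4.89 and 5.05. The defining pluripotency markers were on in every line. Line means of Pou5f1 ran 11.53 to 11.99, compared with 11.49 for ES cells and with 4.67 (Actin-GFP) and 4.83 (Pou5f1-GFP) for MEFs. Those of Nanog ran 11.13 to 11.91, compared with 11.93 for ES cells. For the fibroblast marker Col1a2 they ran 6.13 to 6.83, compared with 6.19 for ES cells and with 9.51 and 11.04 for the MEF types. The ES arrays shared their 2 slides with OSCK, OSCE 8 and the MEFs, and OSCE 13, OSE T8 and OSE T9 lay on the other 2 slides.

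A total of 708 genes, 4.53% of those tested, were called in the same direction in each of the 5 lines against ES cells (limma, adjusted p under 0.05 in each line). Of these, 290 were higher in the lines (1.85% of genes) and 418 were lower (2.67%). With median scaling in place of quantile normalization 508 genes were shared, 155 higher and 353 lower, so 30.5% were higher, against 41% here. With slide in the fit the count was 898 (replicate number, which marks the slide of a set, as a block) or 792 (random block). Without ES replicate 2 the higher genes numbered 183. In all 708 the 10 iPS arrays did not overlap the 2 ES arrays, and 358 differed by at least 2-fold in the mean of the lines. The same lack of overlap was seen in 1021 genes above ES cells (6.53%) and 1149 below (7.35%). All 5 comparisons share the 2 ES arrays, so one unusual feature of the ES cells would appear in every line.

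**Figure D1:**
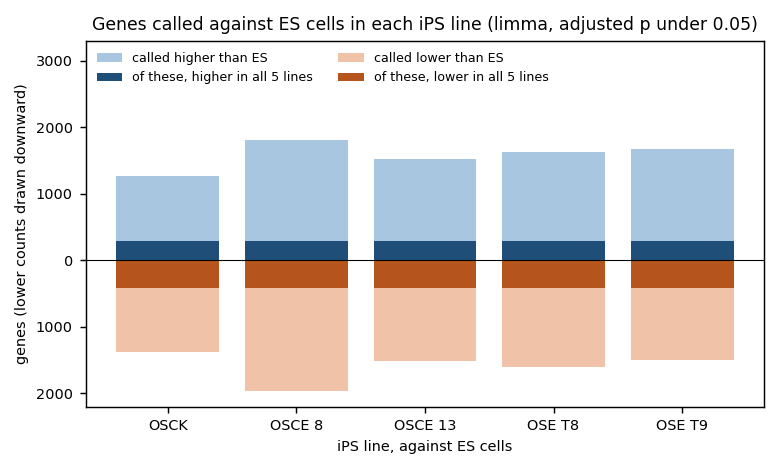
Number of genes (y axis) called higher (upward) or lower (downward) than ES cells in each iPS line (x axis), with the genes called the same way in all 5 lines in dark colour. Calls range between 2647 in OSCK and 3778 in OSCE 8, and the 290 higher and 418 lower shared genes are the same in each bar.

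Each single line had more calls than the shared set. OSCE 8 had the most, 3778 genes (24.2% of those tested), and OSCK the fewest, 2647 (16.9%). OSCE 13 had 3038 (19.4%), OSE T8 3237 (20.7%) and OSE T9 3176 (20.3%). The shared genes were 26.7% of the OSCK calls and 18.7% of the OSCE 8 calls. A call in at least 1 line was made for 7003 genes, and 514 of them were called higher in 1 line and lower in another. The mean of the 5 lines differed from ES cells in 3447 genes (22%), 1695 higher (10.8%) and 1752 lower (11.2%), with 461 past 2-fold (2.95%). Leaving out 1 ES array brought this count to 2076 (without replicate 1) or 2057 (without replicate 2). Taking each line, MEF type and the ES cells as 1 sample left 115 genes called, 34 higher and 81 lower, all of them in the shared set, and 1281 genes passed an unadjusted p under 0.05.

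Each shared gene was placed by the MEF level. The MEFs were called on the same side of ES cells as the lines for 506 of the 708 genes. This comparison uses the same 2 ES arrays as those of the lines. An unusual feature of the ES cells would thus put the MEFs on the side of the lines too. In 234 (33.1%) the lines lay between ES cells and MEFs, in 121 (17.1%) they were not called against the MEFs, and in 151 (21.3%) they lay past the MEF level. The MEFs were not called against ES cells in 111 genes (15.7%), and in 91 (12.9%) they were called on the other side. These counts depend on single ES arrays: 144 genes lay between without ES replicate 2, and the MEFs were on the other side in 47 genes without ES replicate 1 and in 51 without ES replicate 2. Asking for the 4 lines other than OSE T9 gave 161 genes with the MEFs on the other side. As a background, 61% of all genes were called between MEFs and ES cells (30.7% higher and 30.3% lower in MEFs), and 70% between the lines and MEFs. The MEF level here is the mean of both types. Actin-GFP MEFs lay beyond Pou5f1-GFP MEFs on the side of the lines in 96 shared genes, and Pou5f1-GFP beyond Actin-GFP MEFs in 121. Eif2s3y counts as past the MEF level, though the lines differed from Actin-GFP MEFs by -0.03. Supt16 counts so too, though the lines differed from Pou5f1-GFP MEFs by -0.45.

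**Figure D2:**
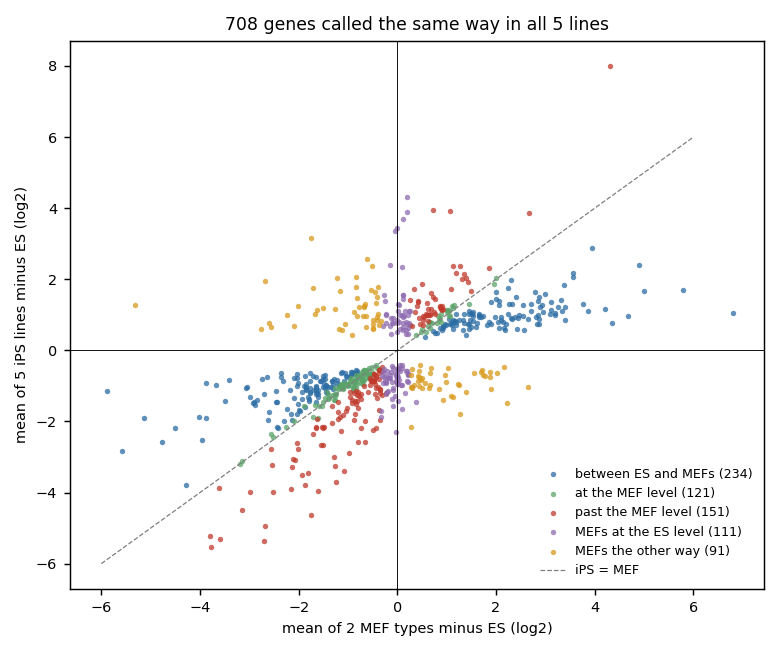
Difference of the mean of the 5 iPS lines from ES cells (y axis, log2) against the difference of the mean of the 2 MEF types from ES cells (x axis, log2), with 1 point for each of 708 shared genes, coloured by position. Points on the dashed line have equal levels in lines and MEFs. The point farthest up, at 8.01, is the EGFP probe.

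The arrays were also ordered without calls, and this order follows in large part from how the positions are defined. Both ES arrays lay above all 14 other arrays in 296 shared genes and below all of them in 193, against 738 and 599 of all genes tested. All 10 iPS arrays lay above the 6 ES and MEF arrays in 105 shared genes and below them in 124, against 326 and 308 of all genes. In 130 they lay between the ES and the MEF arrays, against 491 of all genes. Of the 121 genes at the MEF level, the ES arrays were outside all other arrays in 118, and there a line that follows the MEFs and an ES line that stands apart cannot be told apart. Of the 234 genes between, the ES arrays were outside all others in 234. Of the 151 genes past the MEF level, the ES arrays were outside in 128 and the lines in 55. In the 111 genes with MEFs at the ES level the ES arrays were outside in 9, and the lines outside all 6 others in 84.

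The direction was not equal in all positions. Of the 290 higher genes, 117 (40.3%) lay between ES cells and MEFs, with a median of 0.94 in the lines against 2.09 in MEFs, both as log2 differences from ES cells. Of the 418 lower genes, 101 (24.2%) lay past the MEF level, with medians of -1.73 in the lines and -0.89 in MEFs. The lower genes past the MEF level had the largest median change of the 10 combinations of position and direction. They held 82 genes past 2-fold.

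Of these 101 genes, 26 belong to the list of genes that interferon induces. Of 41 tested interferon-stimulated genes, 37 were lower in the lines than in ES cells and 0 were higher by limma (0 higher and 39 lower at an unadjusted p under 0.05), with a median log2 difference of -2.16, against 0.0077 over all genes. In the single lines OSCK had 38 of the 41 lower, where 8.8% of all its genes were, and OSCE 8 had 37 (12.5%). OSE T8 had the fewest, 33 (10.3%). OSCE 13 and OSE T9 had 35 each, where 9.65% and 9.61% of all genes were lower. In 32 the call was shared by all 5 lines (78%, against 4.53% of all genes), 26 of them past the MEF level. With 1 sample per line and the ES cells as 1 sample, 22 of the 41 were called. Both ES arrays were above all 14 others in 32 genes of the list, and in 4.72% of all genes.

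Usp18, a protease that removes the ubiquitin-like modifier Isg15 and damps interferon signalling, showed the order of the groups. It read 4.64 to 6.54 on the 10 iPS arrays (median 5.35), 10.83 and 10.81 in ES cells, 8.95 and 8.51 in Actin-GFP MEFs, and 7.56 and 7.47 in Pou5f1-GFP MEFs. The lines were lowest, ES cells highest and both MEF types between them, without overlap. Usp18 was detected on 8 of the 10 iPS arrays. The fall against ES cells was 41.4-fold (-5.37 ± 0.18, adjusted p = 2.44e-11), and the lines were below the MEFs by a log2 difference of -2.67 ± 0.14.

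Ifit3, an antiviral protein with tetratricopeptide repeats, read 4.67 to 5.34 on the iPS arrays (median 5.00), 10.35 and 10.32 in ES cells, and 6.52 to 7.12 on the 4 MEF arrays. It was 39.4-fold lower in the lines (-5.30 ± 0.14), where it was near background and detected on 6 of the 10 iPS arrays. Oas1g, one of the oligoadenylate synthetases that activate RNase L, averaged 6.09 in the lines, 10.59 in ES cells, and 7.58 and 7.30 in the Actin-GFP and Pou5f1-GFP MEFs. Rsad2 (viperin), which blocks viral replication, averaged 4.96 in the lines, 8.86 in ES cells, and 7.22 and 6.18 in the MEFs. Rsad2 was detected on 4 of the 10 iPS arrays. In each of these genes the MEFs stood between the mean of the lines and the ES cells, but in Oas1g OSCE 13, at 7.76, was above the MEFs.

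**Figure D3:**
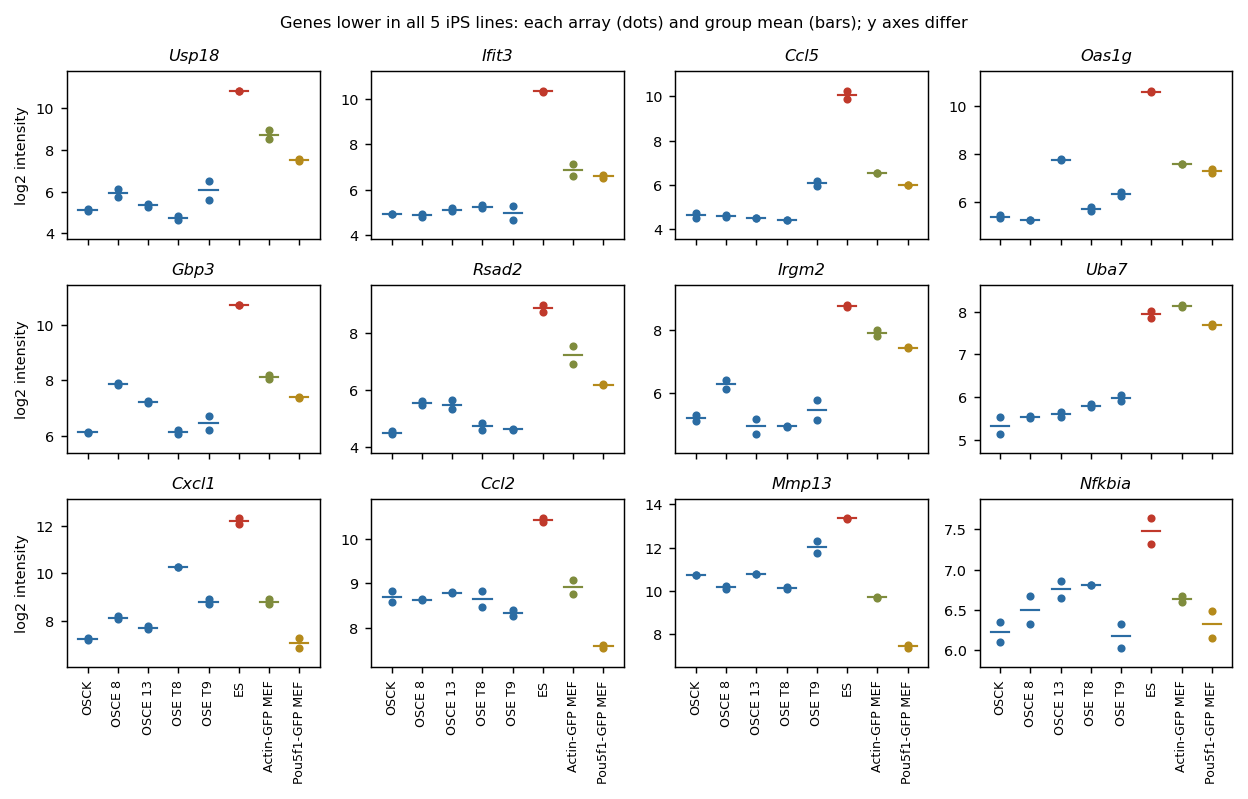
Log2 intensity (y axes, which differ between panels) on each array of 12 genes that were lower in all 5 lines, with a dot for each array and a bar for each group mean. The lines are blue, ES cells red, Actin-GFP MEFs green and Pou5f1-GFP MEFs yellow, and the ES arrays lie above the 10 iPS arrays in every panel.

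The guanylate-binding protein Gbp3 (-3.99 ± 0.11) and the immunity-related GTPases Igtp (-3.45 ± 0.14) and Irgm2 (-3.40 ± 0.15), which act against intracellular microbes, fell in the same way. Irgm2 averaged 5.38 in the lines and 8.78 in ES cells, with 7.93 and 7.46 in the MEFs. Transcription factors that carry the interferon signal were lower too: Stat2 (-1.95), Irf9 (-1.67) and Irf7 (-2.34) differed from ES cells by these log2 values, and each was called in all 5 lines. Irf1 did not pass the test, with a difference of 0.10. The receptors and sensors upstream mostly did not pass it either. Of 19 genes of the interferon and RNA sensing list 1 was higher (the kinase Jak1), 5 were lower and 13 were not called. Over all genes 10.8% were higher and 11.2% lower, so the lower share of this list was above that of all genes. In every line 2 of the 19 were called, both lower (10.5%, against 4.53% of all genes called in every line).

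For some genes of the Isg15 pathway the MEFs were not called against ES cells. Uba7, the activating enzyme for Isg15, averaged 5.65 in the lines, 7.94 in ES cells, and 8.13 and 7.69 in the MEFs. It was 4.90-fold lower in the lines than in ES cells, and the MEFs were not called against ES cells (-0.03, adjusted p = 0.85). Ube2l6, the conjugating enzyme of the same modifier, averaged 5.69 in the lines, 7.39 in ES cells, and 7.53 and 6.59 in the MEFs. It is not on the interferon list, and was lower in Pou5f1-GFP MEFs than in ES cells (-0.80, adjusted p = 0.00102). For these the lines, not the ES cells, were outside the other groups.

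The chemokine genes Ccl5 and Cxcl10, which interferon also induces, were low in the lines. Ccl5 read 4.41 to 6.19 on the iPS arrays (median 4.53), 9.87 and 10.25 in ES cells, and 5.98 to 6.55 on the MEF arrays. Ccl5 was detected on 2 of the 10 iPS arrays. Only OSE T9, at 6.08, was near the MEFs. Cxcl10 was not above background on any iPS or MEF array and read 7.97 and 8.34 in ES cells, so it was at least 9.10-fold lower in the lines (adjusted p = 1.51e-11). As for Gbp2b, at least 5.65-fold lower, the ES cells alone had the gene above background.

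The promoters of 4 of these genes are printed because they hold the element bound by the interferon-activated factors, and that of Cxcl1, described below, because it holds an element of NF-kB. The sequences are RefSeq windows on GRCm38.p6, 5′ to 3′ on the strand of the gene, with 250 bases before the start site and 50 after it, and capitals mark the motif. The interferon element was searched as GAAANNGAAA or its other strand TTTCNNTTTC, and the NF-kB element as GGGANNTTCC or GGAANNTCCC, with overlapping matches counted. The windows are Ifit3 at chr19:34583279-34583578 (plus strand), Oas1g at chr5:120887564-120887863 (minus strand), Gbp3 at chr3:142559794-142560093 (plus strand), Rsad2 at chr12:26456403-26456702 (minus strand) and Cxcl1 at chr5:90890995-90891294 (plus strand).
Ifit3: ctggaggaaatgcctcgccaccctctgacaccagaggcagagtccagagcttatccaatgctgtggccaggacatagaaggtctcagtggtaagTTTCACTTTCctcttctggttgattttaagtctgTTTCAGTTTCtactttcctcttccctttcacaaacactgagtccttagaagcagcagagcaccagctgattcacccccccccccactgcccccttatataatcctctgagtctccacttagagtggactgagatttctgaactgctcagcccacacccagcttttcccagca
Oas1g: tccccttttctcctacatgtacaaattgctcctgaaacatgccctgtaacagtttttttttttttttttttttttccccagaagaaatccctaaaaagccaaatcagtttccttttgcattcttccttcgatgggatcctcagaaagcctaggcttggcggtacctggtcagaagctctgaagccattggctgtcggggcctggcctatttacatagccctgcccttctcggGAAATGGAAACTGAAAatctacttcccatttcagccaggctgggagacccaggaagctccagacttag
Gbp3: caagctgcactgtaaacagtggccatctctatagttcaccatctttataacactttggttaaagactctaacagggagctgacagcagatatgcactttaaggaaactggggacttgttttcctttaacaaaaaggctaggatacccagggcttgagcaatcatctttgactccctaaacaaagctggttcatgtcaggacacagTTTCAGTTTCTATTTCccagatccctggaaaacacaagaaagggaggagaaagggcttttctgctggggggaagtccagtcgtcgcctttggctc
Rsad2: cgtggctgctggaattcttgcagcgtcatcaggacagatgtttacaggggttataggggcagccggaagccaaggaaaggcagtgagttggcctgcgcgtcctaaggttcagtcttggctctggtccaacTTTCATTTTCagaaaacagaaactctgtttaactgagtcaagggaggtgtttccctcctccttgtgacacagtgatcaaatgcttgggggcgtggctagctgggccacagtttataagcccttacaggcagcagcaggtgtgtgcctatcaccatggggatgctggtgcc
Cxcl1: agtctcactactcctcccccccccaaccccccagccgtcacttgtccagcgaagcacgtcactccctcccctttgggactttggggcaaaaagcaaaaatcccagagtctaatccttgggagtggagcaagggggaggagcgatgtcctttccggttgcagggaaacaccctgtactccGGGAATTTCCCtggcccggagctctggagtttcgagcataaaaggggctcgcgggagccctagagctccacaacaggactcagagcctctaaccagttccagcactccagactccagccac

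Of the genes tested, 9908 had a promoter in the table, and 338 of these (3.41%) held the interferon element, as did 3.99% of all 27025 genes in the table. It was present in 39 of 289 matched genes lower in all 5 lines (13.5%) and in 7 of 179 higher in all of them (3.91%). Among the interferon-stimulated genes lower in all 5 lines it was in 11 of 24 (45.8%), and among the other shared lower genes in 28 of 265 (10.6%). By position the share was 30.8% of 65 lower genes past the MEF level, 7.69% of 65 at the MEF level, 7.32% of 82 between, 9.09% of 44 with MEFs at the ES level and 12.1% of 33 with MEFs on the other side. The NF-kB letters were in 3.11% of the shared lower genes and 1.55% of all tested genes. These shares describe letters in a window and were not tested.

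Antigen presentation by MHC class I, which displays peptides to T cells and is raised by interferon, had 12 of 17 tested genes lower, 2 higher and 3 not called, where 11.2% of all genes were lower and 10.8% higher. The median was -0.83, and 5 of the 17 were called in every line (29.4%, against 4.53% of all genes). The immunoproteasome subunit Psmb9 averaged 6.41 in the lines and 7.73 in ES cells (-1.32 ± 0.12), with 6.89 in Actin-GFP and 4.93 in Pou5f1-GFP MEFs. The peptide transporter Tap1 averaged 5.05 in the lines and 6.18 in ES cells, with 5.57 and 4.98 in the MEFs. B2m, the light chain of the complex, was lower too (-0.83), and its call was not made in every line. The list's mean level was 7.73 to 8.41 on the iPS arrays, 8.66 and 8.68 on the ES arrays and 7.95 to 8.85 on the MEF arrays.

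**Figure D4:**
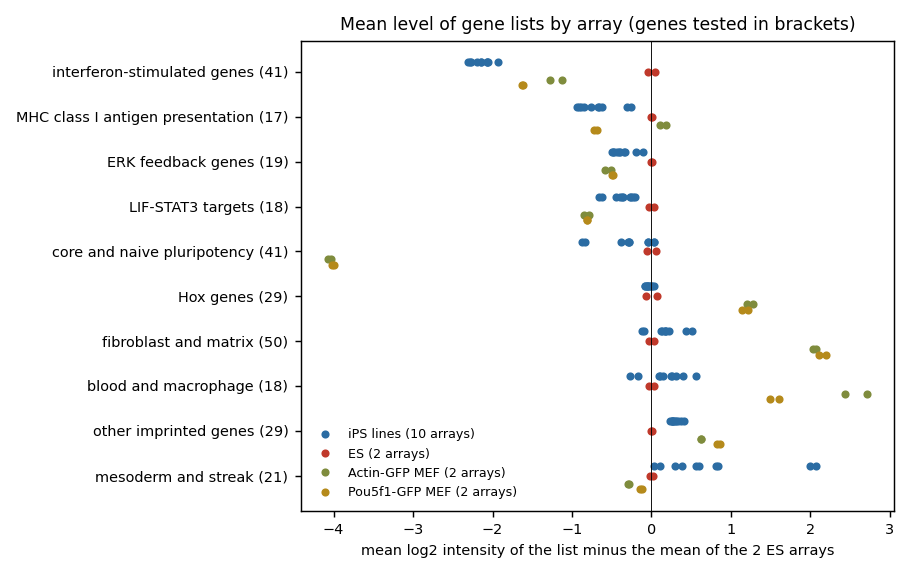
Mean log2 intensity of the tested genes of 10 lists on each array, minus the mean of the 2 ES arrays (x axis), with 1 dot for each array and lines above ES cells and MEFs within each list. The interferon-stimulated list is lower on all 10 iPS arrays than on the ES and MEF arrays, and the fibroblast and pluripotency lists of the lines lie near ES cells and far from MEFs.

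Several of the other genes lower in every line encode secreted or signalling proteins, named here one by one since no list of them was tested. Cxcl1, a neutrophil attractant, read 7.19 to 10.28 on the iPS arrays (median 8.13), 12.32 and 12.09 in ES cells, 8.91 and 8.69 in Actin-GFP MEFs, and 7.26 and 6.85 in Pou5f1-GFP MEFs. It was 13.8-fold lower (-3.78 ± 0.11), and highest of the lines in OSE T8. The collagenase Mmp13 averaged 10.77 in the lines and 13.35 in ES cells, against 9.71 and 7.46 in the MEFs. Ccl2, an attractant of monocytes, averaged 8.62 in the lines and 10.41 in ES cells, against 8.92 and 7.59 in the MEFs. In these the ES arrays were the highest of all 16.

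The NF-kB inhibitor Nfkbia, itself a target of NF-kB, read 6.03 to 6.86 on the iPS arrays (median 6.51), 7.31 and 7.64 in ES cells, and 6.16 to 6.68 on the MEF arrays. It was 1.97-fold lower than in ES cells, and differed from the MEFs by 0.01 ± 0.10. The stress-induced gene Ier3 averaged 10.09 in the lines and 11.14 in ES cells, and the AP-1 subunit Fosl1 averaged 5.14 in the lines and 6.33 in ES cells. The chemokine gene Ccl20 averaged 4.60 in the lines, where it was detected on 1 of the 10 arrays, and 6.74 in ES cells. The serpin Serpinb2 averaged 7.16 in the lines and 9.997 in ES cells, and was at background on all 4 MEF arrays, so the lines lay between. As single samples per line, Cxcl1 had an adjusted p of 0.27.

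The lists of growth factor and LIF signalling had more genes lower than higher, where 11.2% of all genes were lower and 10.8% higher. Of 19 ERK feedback and target genes 10 fell, 0 rose by limma (0 also at an unadjusted p under 0.05) and 9 were not called. Of 18 LIF and STAT3 targets 11 fell, 0 rose (2 at an unadjusted p under 0.05) and 7 were not called. The lists share Egr1, Fos and Ier3. Calls in every line were made for 3 of the ERK list (Egr2, Fosl1 and Ier3, 15.8%) and 2 of the LIF list (Ier3 and Il6st, 11.1%). Over all genes 4.53% were called in every line. Egr2, an early response factor, averaged 4.60 in the lines, 5.88 in ES cells, and 6.56 and 7.39 in the MEFs. Egr2 was detected on 1 of the 10 iPS arrays. The Il6st probe, for the signalling subunit of the LIF receptor, was not above background on any iPS array and read 6.21 in ES cells, at least 2.35-fold lower in the lines, with 6.33 and 8.62 in the MEFs.

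The pluripotency list was close to ES cells and far from MEFs. In the mean of the lines 17 of 41 genes were lower than in ES cells, 2 higher and 22 not called. Over all genes 11.2% were lower and 10.8% higher. In MEFs 37 of the 41 were lower than in ES cells, against 30.3% of all genes. The median was -0.30 in the lines and -4.44 in MEFs, as differences from ES cells. A change in every line was found for 3 of the list, Nr5a2, Dppa3 and Il6st (7.32%, against 4.53% of all genes). Nr5a2, an orphan nuclear receptor that binds Pou5f1 regulatory DNA, read 5.33 to 7.19 on the iPS arrays (median 6.87), 8.70 and 8.79 in ES cells, and 4.21 to 4.30 on the MEF arrays. It was 4.51-fold lower in the lines, lowest in OSCE 8, and its dimmer second probe differed by -0.0014.

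Dppa3 (Stella), a germ cell and oocyte protein that guards maternal methylation marks, went the other way. It read 8.36 to 10.01 on the iPS arrays (median 9.37), 6.17 and 6.02 in ES cells, and 4.30 to 4.50 on the MEF arrays, where it was below detection. The rise was 8.86-fold (3.15 ± 0.11, adjusted p = 5.13e-11; 0.038 with 1 sample per line). The lines were above both ES cells and MEFs, so the level lay away from the MEFs. Of the factors named in the lines, Pou5f1 (0.20) and Sox2 (-0.25) were not called in the mean of the lines on their brightest probes. The second Sox2 probe, detected on all 10 iPS and both ES arrays, averaged 6.94 in the lines and 8.26 in ES cells (-1.33). Klf4 (-0.68), Myc (-0.46) and Esrrb (-0.47) were lower but not in every line.

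Mesoderm and primitive streak genes were higher in some lines. These mark the first cells that leave the epiblast of the embryo. Of 21 tested 14 were higher in the mean of the lines, where 10.8% of all genes were, 1 was lower and 6 were not called. A call in every line was made for 3 (14.3%, against 4.53% of all genes). The median was 0.64 (0.35 with genes below background at their bound). T (brachyury), the defining factor of the streak, read 6.05 to 11.78 on the iPS arrays (median 7.16), 4.65 and 4.77 in ES cells, and 4.51 to 4.81 on the MEF arrays. It was above background only in the lines, at least 8.70-fold higher than in ES cells. OSCE 8 was highest at 11.75, and OSE T9 lowest at 6.06. With 1 sample per line the adjusted p was 0.71.

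Gsc, a homeobox gene of the organizer, followed the same order of lines, with 8.81 in OSCE 8 and 5.62 in OSE T9, against 4.98 in ES cells. Its MEF levels of 6.68 and 7.28 put the mean of the lines, 7.02, at the MEF level. Msx1, a homeobox gene of mesenchyme, averaged 7.57 in the lines, 6.58 in ES cells, and 8.87 and 10.02 in the MEFs. The streak genes Lhx1 (1.88), Fgf8 (1.74), Eomes (1.18) and Mixl1 (0.98) were higher in the mean of the lines without a call in every line. The list's mean level was 5.57 to 7.61 on the iPS arrays, 5.52 and 5.56 on the ES arrays and 5.24 to 5.42 on the MEF arrays. OSE T9, at 5.65 and 5.57, was near ES cells, and OSCE 8, at 7.61 and 7.53, was highest.

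**Figure D5:**
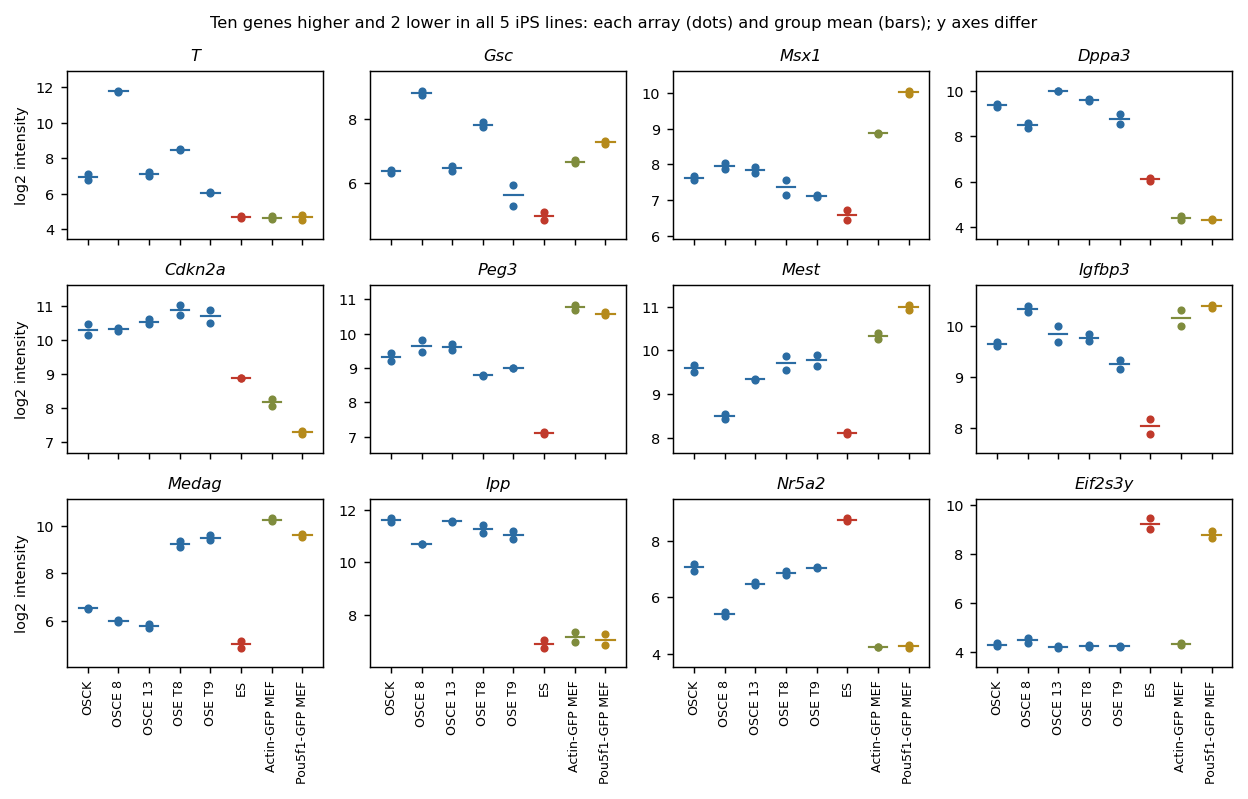
Log2 intensity (y axes, which differ between panels) on each array of 10 genes higher and 2 genes lower (Nr5a2 and Eif2s3y) in all 5 lines, with a dot for each array and a bar for each group mean. The MEFs lie at the ES level for T and Ipp, past the lines for Peg3 and Mest, and below ES cells for Dppa3 and Cdkn2a. For Medag the MEF means lie past every line mean, but the OSE T9 arrays overlap the Pou5f1-GFP MEF arrays.

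Cdkn2a, which encodes the p16 and Arf brakes on the cell cycle, read 10.14 to 11.03 on the iPS arrays (median 10.48), 8.88 and 8.88 in ES cells, and 7.23 to 8.26 on the MEF arrays. It was 3.17-fold higher in the lines, and its other probes rose by 1.41 each on the log2 scale. On the brightest probe MEFs were lower than ES cells, so the lines lay farther from the MEFs than ES cells did. The third probe averaged 7.64 in the lines, 6.23 in ES cells, 6.74 in Actin-GFP MEFs and 5.91 in Pou5f1-GFP MEFs. There Actin-GFP MEFs were above ES cells. The p53-induced death gene Pmaip1 averaged 8.24 in the lines and 7.03 in ES cells, against 6.24 and 6.46 in the MEFs. Plk1, a mitotic kinase, averaged 11.23 in the lines and 10.16 in ES cells. The cell cycle list had 7 of 34 genes higher and 0 lower by limma (11 and 0 at an unadjusted p under 0.05), where 10.8% of all genes were higher and 11.2% lower. In every line 2 of the 34 were called (5.88%, against 4.53% of all genes). With 1 sample per line Cdkn2a had an adjusted p of 0.089.

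Imprinted genes are expressed from 1 parental copy. Outside the Dlk1-Dio3 cluster 10 of 29 were higher, 2 lower and 17 not called, where 10.8% of all genes were higher. In every line 2 were called (6.9%, against 4.53% of all genes), and both lay between ES cells and MEFs. Peg3, a zinc finger gene expressed from the paternal copy, read 8.78 to 9.81 on the iPS arrays (median 9.32), 7.13 and 7.09 in ES cells, and 10.55 to 10.84 on the MEF arrays. It was 4.48-fold higher (2.16 ± 0.10), with 1.93 for its second probe. Mest, another paternally expressed gene, averaged 9.38 in the lines, 8.10 in ES cells, and 10.33 and 10.98 in the MEFs. The maternally expressed RNA H19 was higher by 1.52 in the mean of the lines, without a call in every line.

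Fibroblast and matrix genes moved both ways. Of 50 tested, 17 were higher, 8 lower and 25 not called, where 10.8% of all genes were higher and 11.2% lower. In MEFs 45 of the 50 were higher than in ES cells, against 30.7% of all genes. The median was 0.17 in the lines and 1.95 in MEFs, as differences from ES cells. Igfbp3, which binds insulin-like growth factors, read 9.16 to 10.40 on the iPS arrays (median 9.70), 8.18 and 7.88 in ES cells, and 9.999 to 10.43 on the MEF arrays, a 3.35-fold rise. The matrix gene Mgp averaged 11.65 in the lines and 9.96 in ES cells. The growth factor receptor Pdgfra averaged 7.62 in the lines and 6.84 in ES cells, against 11.38 and 10.99 in the MEFs. The transcription factor Twist2 (-0.63), the receptor Cd44 (-0.86) and the matricellular gene Ccn2 (-1.07) fell in every line.

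Medag, a gene of fat cell differentiation, divided the lines. It averaged 9.24 in OSE T8 and 9.49 in OSE T9, against 6.54 in OSCK, 6.01 in OSCE 8, 5.79 in OSCE 13 and 5.02 in ES cells, with 10.24 and 9.59 in the MEFs. The mean level of the fibroblast list was 8.89 to 9.51 on the iPS arrays, 8.97 and 9.05 on the ES arrays and 11.04 to 11.20 on the MEF arrays. Of its defining markers, Thy1 (0.82) and Dcn (0.44) were higher in the mean of the lines but not in every line, Twist2 fell, and Col1a1, Col1a2 and Prrx1 were not called. Line means of Dcn ran 6.04 to 10.17, on both sides of the 7.27 of ES cells, and those of Thy1 ran 10.16 to 11.65, against 10.20. The part of feeder RNA in these genes was not tested, and fewer cells of a type cannot be told apart from less RNA per cell. Hox genes, a mark of the body region of origin, had 0 higher and 1 lower of 29 by limma (0 and 3 at an unadjusted p under 0.05). In MEFs 22 were higher than in ES cells. The shares over all genes were 10.8% higher and 11.2% lower in the lines, and 30.7% higher in MEFs.

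The macrophage list had 3 of 18 genes higher, 2 lower and 13 not called, where 10.8% of all genes were higher and 11.2% lower, and its mean level was 5.14 to 5.97 on the iPS arrays, 5.38 and 5.44 on the ES arrays and 6.89 to 8.12 on the MEF arrays. Its one member that fell in every line was Cd68, a lysosomal protein of macrophages, at 7.75 in the lines, 8.81 in ES cells, and 9.56 and 7.89 in the MEFs. The blood cell cytoskeleton gene Nckap1l averaged 5.14 in the lines, 7.29 in ES cells, and 8.47 and 6.64 in the MEFs. Csf1r, Tyrobp and Fcer1g were not called in the mean of the lines.

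Some of the largest rises were in genes outside the lists. Ipp, a gene of the kelch family, read 10.71 to 11.67 on the iPS arrays (median 11.32), 7.08 and 6.77 in ES cells, and 6.86 to 7.37 on the MEF arrays, a 19.9-fold rise with MEFs at the ES level. Nr1h5, a nuclear receptor gene, averaged 8.20 in the lines and was not above background in ES cells or MEFs, at least 9.55-fold higher, with 1.87 for its second probe. Haus1, a subunit of the augmin complex of the spindle, averaged 9.65 in the lines, 5.80 in ES cells, and 8.56 and 8.35 in the MEFs.

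Not all such changes were seen by other probes of the gene. The histone chaperone Supt16 was higher by 2.31 on its brightest probe and differed by -0.057 on the second, and Tm7sf3 was higher by 2.88 and differed by -0.19 on the second. The sorting nexin Snx5 was higher by 2.18 and by 1.73 on the second. Of 247 other detected probes of 192 shared genes, 216 had the same sign as the one used, and 120 had at least 50% of its size. Gene levels here are those of 1 probe each.

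The MEF types did not always lie together. They differed in 1795 genes (11.5%). Against ES cells 56.3% of all genes were called in Actin-GFP MEFs and 57.5% in Pou5f1-GFP MEFs. Of the shared lower genes, both MEF types were lower than ES cells in 268, Actin-GFP MEFs alone in 24, Pou5f1-GFP MEFs alone in 42 and neither in 84. For the higher genes the counts were 179, 8, 13 and 90. Past 2-fold, Pou5f1-GFP MEFs alone were on the side of the lines in 20 lower and 8 higher genes. Actin-GFP MEFs alone were on that side in 12 lower and 5 higher genes. Among the genes of Actin-GFP MEFs alone, named after their values were seen, were the centromere gene Cenpq and the enzyme subunit gene Bckdhb. Cenpq averaged 4.67 in the lines, 8.64 in ES cells, 5.81 in Actin-GFP MEFs and 8.25 in Pou5f1-GFP MEFs. Bckdhb averaged 9.17 in the lines, 7.84 in ES cells, and 8.96 and 7.93 in the MEFs.

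The Y chromosome gene Eif2s3y, which encodes a translation initiation factor subunit, also divided the MEF types. It was not above background on any of the 10 iPS arrays or in Actin-GFP MEFs, and read 9.04 and 9.46 in ES cells and 8.67 and 8.93 in Pou5f1-GFP MEFs. The lines were at least 19.4-fold lower than ES cells. The other tested Y-linked genes, Kdm5d, Uty and Zfy2, were not called. The EGFP probe divided the MEF types the opposite way, at 13.05 in Actin-GFP MEFs and not above background in Pou5f1-GFP MEFs. It read 11.28 to 13.16 on the iPS arrays and was not above background in ES cells. Xist, the RNA that silences an X chromosome, averaged 7.32 in the lines and 7.45 in ES cells and was not called.

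Genes of the X chromosome were higher as a group in the mean of the lines, most in OSCE 13. The median difference of 440 X genes was 0.13, against 0.0077 over all genes. Of the 440, 96 were called higher and 20 lower, where 10.8% of all genes were higher and 11.2% lower. In MEFs the median difference of X genes from ES cells was 0.10, against -0.020 over all genes. In OSCE 13 the median was 0.41, and in the other lines it was between 0.040 and 0.097. In every line 15 X genes were higher and 0 lower by limma (1 lower at an unadjusted p under 0.05 in each). That is 3.41% of X genes called in every line, against 4.53% of all genes. One of the 15 was Atrx, a chromatin remodeller, at 9.001 in the lines and 8.02 in ES cells. The autosome medians of the mean of the lines lay between -0.033 (chromosome 17) and 0.036 (chromosome 12).

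The median sizes of the shared changes were similar among the lines. The median difference of the 290 higher genes was between 0.91 (OSCK) and 1.103 (OSE T8), and that of the 418 lower genes between -1.08 (OSCE 8) and -0.95 (OSCE 13). OSCE 8 had the most extreme value in 198 of the 708 genes and OSE T9 in 99. Of 308 shared genes with a matched symbol and a 2-fold mean difference, the 5 line means lay within 0.5 of each other in 88 and spanned more than 2 in 23, with T the widest at 5.70. Within the slides that the ES cells shared with OSCK and OSCE 8, the median difference of the higher genes was 0.87 and 0.97 in OSCK and 0.92 and 0.96 in OSCE 8, and the signs there are fixed by the lack of overlap. The genes nearest to the threshold were Washc3, Kcnab1 and Sass6 inside, with mean differences of -0.60, -0.47 and -0.45, and Kifc1, Nosip and Flt1 outside, at 0.69, -0.75 and -0.71.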

How the data were processed

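Total RNA of 5 iPS lines, ES cells and 2 MEF types was measured on 16 arrays, 2 per group. Per the file headers, the authors' probe intensity is a BeadStudio 3.2.6 export with neither normalization nor an error model applied. The deposited detection score, a fraction, was read as 1 minus a detection p, and the deposited bead number (a score here, median 37) was used only as a check. The authors' series matrix holds intensity normalized by a method not given in the sources used here, and its probe names do not match the raw table, so it served for counts of probes only.

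Intensity was corrected with normexp on detection p (offset 16), quantile normalized and put on log2 with limma 3.58.1 in R 4.3.3. A probe was detected at a detection p under 0.01. Of 34325 target names 16079 matched a current symbol and 6654 a synonym, and 11592 were kept as given. A gene is its brightest probe by the mean over all arrays, kept if detected on at least 2 arrays. limma fitted 1 mean for each of 8 groups over all 16 arrays, which leaves 8 residual degrees of freedom plus 6.23 from moderation, with Benjamini-Hochberg adjustment over 15642 genes. The MEF level is the equal mean of both types. The number of arrays limits the precision, and where nothing says that replicates came from separate cultures the p-values cover only the spread between these arrays. A difference is lines minus ES cells unless stated, with its standard error after ±. Where a gene was not above background in 1 group, a lower limit of the fold is given, with that group at its own level or, if higher, at the array's dimmest detected probe.

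The replicate numbers, which are also slides, were checked as pairs: deviations correlated at 0.0984 to 0.430 over 28 pairs of groups, over 0.1 in 27. The rule for pairing asked for over 0.1 in every pair, so the fit has no block; the counts with slide in the fit are given with the result.

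Named genes are those shared by all lines without overlap of arrays: the 15 largest rises and falls, the 6 largest in each position, up to 4 of each list with the largest change, and Pou5f1, Sox2, Klf4, Myc, Esrrb, Nanog, Eif2s3y and Xist. Members given for small counts, EGFP and the counts at an unadjusted p were added after values were seen. The members, the lists and this rule were chosen with earlier results of these data known, so the lists are not independent evidence. One gene's result is not reported here.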

Additional observations from a re-analysis of the deposited data

Results flagged for a closer look

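Esrrb and Xist lay above ES cells in some lines and below them in others, and the difference between lines was not tested. Esrrb, a reprogramming factor in the name of 4 of the lines by common use, was above ES cells in 1 line, OSCK (0.58 on the log2 scale), and below in 4, farthest in OSCE 8 (-1.98). Xist was above ES cells in 2 lines, highest in OSCE 13 (0.50), and below in 3, lowest in OSCE 8 (-0.79).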

How the results depend on the processing

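The number of genes shared by all 5 lines lay between 508 (median scaling) and 750 (offset 50) over the alternatives for background, scaling, filter and probe choice, against 708. It was 638 with only ES and iPS arrays and 792 with slide as a random block (correlation 0.196). The deposited series matrix gave 792 shared probes (1.7%), against 857 (1.84%) of the raw table. With the replicate block 898 were shared; deviations correlated at over 0.1 in 27 of 28 pairs of groups and at 0.0984 in the other, and the pairing rule asked for over 0.1 in all. With only OSCK and OSCE 8, on the slides of the ES arrays, 1704 genes were shared by these 2 lines, 1083 of them on the MEF side, a count that asks for fewer lines. With slide as a replicate block there, the counts were 2346 and 1440, with 4071 calls in OSCK and 2817 between the MEF types. At an adjusted p under 0.01, 455 genes were shared and 336 on the MEF side. At that threshold the calls numbered 2221 for the mean of the lines, 1665 (OSCK), 2453 (OSCE 8), 2034 (OSE T8), 1917 (OSCE 13), 1926 (OSE T9) and 1148 between MEF types. With a 2-fold minimum 172 were shared and 120 on the MEF side. The calls were then 461 for the mean, 562 (OSCK), 756 (OSE T8), 897 (OSCE 8), 668 (OSE T9), 650 (OSCE 13), 3622 for MEFs against ES cells, 3344 for lines against MEFs and 460 between MEF types. With lines and MEF types as replicates, 115 genes were called for the lines and 5011 for MEFs against ES cells, a fit with fewer samples. Leaving out 1 array gave 2057 to 3872 calls for the mean of the lines, 1740 to 3020 for OSCK, 2205 to 3638 for OSE T8, 2644 to 4184 for OSCE 8, 2027 to 3539 for OSE T9, 2058 to 3435 for OSCE 13, 1129 to 2062 between MEF types, 491 to 729 shared genes, 352 to 520 on the MEF side and 31 to 33 shared interferon-stimulated genes. Counts moved by over 1.5 times without either ES array for the mean of the lines, without ES replicate 2 for OSE T9 (2027), without OSCK replicate 2 for OSCK (1740), and between the MEF types without replicate 1 of Actin-GFP (1140) or Pou5f1-GFP MEFs (1129). So did the shared higher genes (183) and those between (144) without ES replicate 2, and those with MEFs on the other side without ES replicate 1 (47), ES replicate 2 (51) or the line OSE T9 (161). No named gene reversed its direction where it was called in the main or the alternative fit. Of the values of named genes, 3068 kept their call or lack of one, 90 lost a call and 6 gained one. A change of sign without a call in either fit was counted as kept. With 1 ES line and 2 arrays a group, signal near background limits what can be seen of dim genes.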

Other observations

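Germ line genes differed among the lines. Of 20 tested, 5 were higher, 8 lower and 7 not called in the mean of the lines, and 0 were called the same way in every line by limma. Over all genes 10.8% were higher, 11.2% lower and 4.53% called the same way in every line. The mean level of the list was 5.88 to 7.66 on the iPS arrays, 6.74 and 6.83 on the ES arrays, and 5.00 to 5.10 on the MEF arrays. Rhox9, a homeobox gene of the X chromosome, averaged 11.10 in OSCE 13 and 5.37 in OSCE 8, against 7.08 in ES cells.

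Krt8, a keratin of simple epithelia, averaged 11.07 in OSCE 8 and 9.998 in OSCE 13, and between 6.10 and 8.01 in the other 3 lines, against 7.54 in ES cells. The median difference of chromosome 8 genes was 0.19 in OSE T9 and between -0.036 and -0.0050 in the other lines.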
